A study of Mus musculus with 59 samples.

Results

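Microglia cultured from mouse brain were examined for 10 genes of the cell surface and endosomal sensing of bacteria: the Toll-like receptor genes Tlr1, Tlr2, Tlr4, Tlr6 and Tlr13, the accessory genes Cd14 and Ly96, the adaptor gene Myd88 and the kinase-family genes Irak2 and Irak3. These 10 genes were chosen by name from 32070 genes in the deposited tables. Microglia are the resident macrophages of the brain, and these came from pups on the day of birth or the day after. All 3 genotypes carried at least 1 floxed allele of Tbk1, the gene for a kinase of the interferon pathway. WT was Tbk1 fl/fl without Cre, HET was Tbk1 fl/+ with a Cx3cr1-driven Cre, and KO was Tbk1 fl/fl with the same Cre. After 16 h of plating, cells received lipopolysaccharide from bacteria (LPS, 100 ng/mL), the cytokine interleukin-4 (IL4, 20 ng/mL), the artificial double-stranded RNA poly(I:C) (pIC, at a dose that the labels leave unstated) or nothing (untreated) for 24 h. RNA sequencing gave 59 libraries in 12 groups of 5, with 4 in untreated WT, and the labels describe the replicates as independent cultures. Since WT lacked Cre, a difference of KO from WT cannot be told apart from an effect of Cre, whereas HET and KO both carried it.

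Toll-like receptors are membrane proteins that bind conserved microbial molecules. TLR2 pairs with TLR1 or TLR6 to sense bacterial lipoproteins, TLR4 with its partner MD-2 (encoded by Ly96) senses LPS handed over by CD14, and TLR13 of mice is an endosomal receptor for bacterial ribosomal RNA. All of them signal through the adaptor MYD88, which assembles IRAK kinases into a complex that leads to NF-κB and MAP kinase activation. IRAK2 sustains that signal, and IRAK3 (IRAK-M) is an inhibitor that is known to accumulate after LPS. TLR4 also uses a branch through the adaptors TRAM and TRIF, on which TBK1 acts to induce type I interferon.

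The promoter sequences below are of Tlr2 and Irak2, which differed most between genotypes, and of Myd88, Tlr6 and Irak3, which rose with LPS. They come from RefSeq on GRCm38.p6 (mm10), which held windows of 250 bases before a transcript start for 7 of the 10 genes and, with more than 1 start for some genes, 10 windows in all. A start used there can lie inside the gene spans given further on: all 250 bases of the first Tlr6 window, the Myd88 window and the first Irak3 window are within the gene, as are 159 of the Tlr2 window and 49 of the second Tlr6 window, and 0 of the Irak2 window. Of these bases, annotated exons cover all in Irak3, 159 in Tlr2, 49 in the second Tlr6 window, 23 in Myd88 and 0 in the first Tlr6 window. Capitals mark matches, on either strand, to an NF-κB motif (GGG, then any 5 bases, then CC) in Tlr2, Irak3 and the second Tlr6 window and to an interferon-regulatory-factor motif (GAAA, then any 2 bases, then GAAA) in the first Tlr6 window and Myd88. Each stretch is on the minus strand, 5′ to 3′.
Tlr2, chr3:83841761-83841790: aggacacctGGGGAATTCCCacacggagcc
Tlr6, first window, chr5:64959260-64959289: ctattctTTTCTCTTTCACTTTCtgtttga
Tlr6, second window, chr5:64960128-64960157: tttatacacgGGGTAATTCCaacgagtacc
Myd88, chr9:119340039-119340068: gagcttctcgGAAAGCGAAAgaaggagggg
Irak3, first window, chr10:120201603-120201632: ggtctcgcaGGGCGCATCCCtggggagcgg
In Tlr2 the capitals hold 3 overlapping matches, in the first Tlr6 window 2 overlapping matches read on the other strand, and in Irak3 2 overlapping matches, 1 on each strand. Apart from Irak2, only windows with a match are shown. Both Tlr1 windows, the Tlr13 window and the second Irak3 window held neither motif, although Tlr1 also rose with LPS. The first Tlr1 window held GAGGAAGT, a PU.1 motif. The NF-κB motif was present in 45.8% of 32851 promoter windows of the same length, and the interferon-regulatory-factor motif in 2.98%. The Irak2 window, chr6:113638217-113638466 on the plus strand, contained neither motif, nor the AP-1 motif TGANTCA (N is any base, in 6.75% of windows) or the PU.1 motif GAGGAAGT (in 2.44%), which says only that these letters are not in these 250 bases.
Irak2: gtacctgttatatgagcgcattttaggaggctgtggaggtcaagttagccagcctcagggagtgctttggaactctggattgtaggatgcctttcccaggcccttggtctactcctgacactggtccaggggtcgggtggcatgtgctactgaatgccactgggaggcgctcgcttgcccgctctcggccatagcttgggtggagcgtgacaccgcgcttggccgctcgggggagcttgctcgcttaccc

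All 10 genes are protein coding in the mm10 annotation. Tlr1 (chr5:64924679-64933563) and Tlr6 (chr5:64952031-64960097) are neighbours on the minus strand, 18467 bases apart. They share 454 identical stretches of 50 bases, 13.6% of those of the Tlr1 transcript and 12.3% of those of Tlr6, so reads from these stretches could be divided between them in a way that was not stated. Tlr2 lies at chr3:83836272-83841767, Tlr4 at chr4:66827584-66930284, Ly96 at chr1:16688051-16709611, Cd14 at chr18:36725067-36726798, Tlr13 at chrX:106143204-106160493 and Irak2 at chr6:113638467-113695026. Irak3 (chr10:120141648-120202130) is 1.34 Mb from Tbk1, and Myd88 (chr9:119335934-119341411) is 0.56 Mb from Cx3cr1, the gene whose promoter drives Cre. For Irak3, an effect of sequence linked to floxed Tbk1 cannot be told apart from one of the genotype in comparisons with HET (Tbk1 fl/+). WT and KO were both Tbk1 fl/fl. For Myd88, if Cre was inserted at Cx3cr1, the same limit holds in comparisons with WT, which lacked Cre. Exons of Myd88, Irak2 and Irak3 overlap exons of genes on the opposite strand by up to 223, 196 and 122 bases, and whether the counting used the strand is unknown.

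The deposited unit was TPM, which scales reads by gene length and to a fixed total per library and keeps no sequencing depth, so the depth of each library is unknown. Libraries held between 12428 and 14581 genes at 1 TPM or more. Untreated, Tbk1 was at 47.5 ± 4.17 TPM in WT (SD, n = 4), 34.9 ± 1.67 in HET and 19.9 ± 4.74 in KO (n = 5 each), and KO libraries lay below WT and HET libraries in every treatment. Transcript outside the deleted exons can remain in KO, so the level does not measure the deletion. Cx3cr1 was between 688 and 932 TPM in every untreated library. With LPS it averaged 35.2 TPM in WT, 38.3 in HET and 78.3 in KO. Of the 10 microglia markers, Csf1r and Trem2 were abundant, whereas Siglech reached 2.61 TPM at most in any library and Tmem119 21.4. With LPS, markers of border macrophages and monocytes summed to between 950 and 1510 TPM in KO against 463 to 555 in WT and 484 to 965 in HET, mostly Pf4, and 3 of 5 tested markers were called higher and 1 lower for KO against WT, while Ccr2 stayed at or below 0.463 in those libraries. Neutrophil markers summed to between 42.4 and 116 TPM with LPS and to at most 4.79 untreated, mostly S100a8. Of 6 such markers listed, 4 were present and 2, S100a8 and Camp, passed the filter on low values. Both were called higher with LPS in each genotype, and 1 was called higher in KO than in WT and HET with LPS. Camp reached 10.96 TPM at most in any library and Ngp 0.144, and Mpo was at 0 in all LPS libraries. Transcripts of oligodendrocytes, astrocytes and neurons were present, in lower sums with LPS than untreated (oligodendrocyte lineage 77.8 to 561 against 419 to 1850 TPM). The part of these shifts in the results below was not tested. In such bulk samples, fewer cells of a type and less RNA per cell cannot be told apart.

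**Figure D1:**
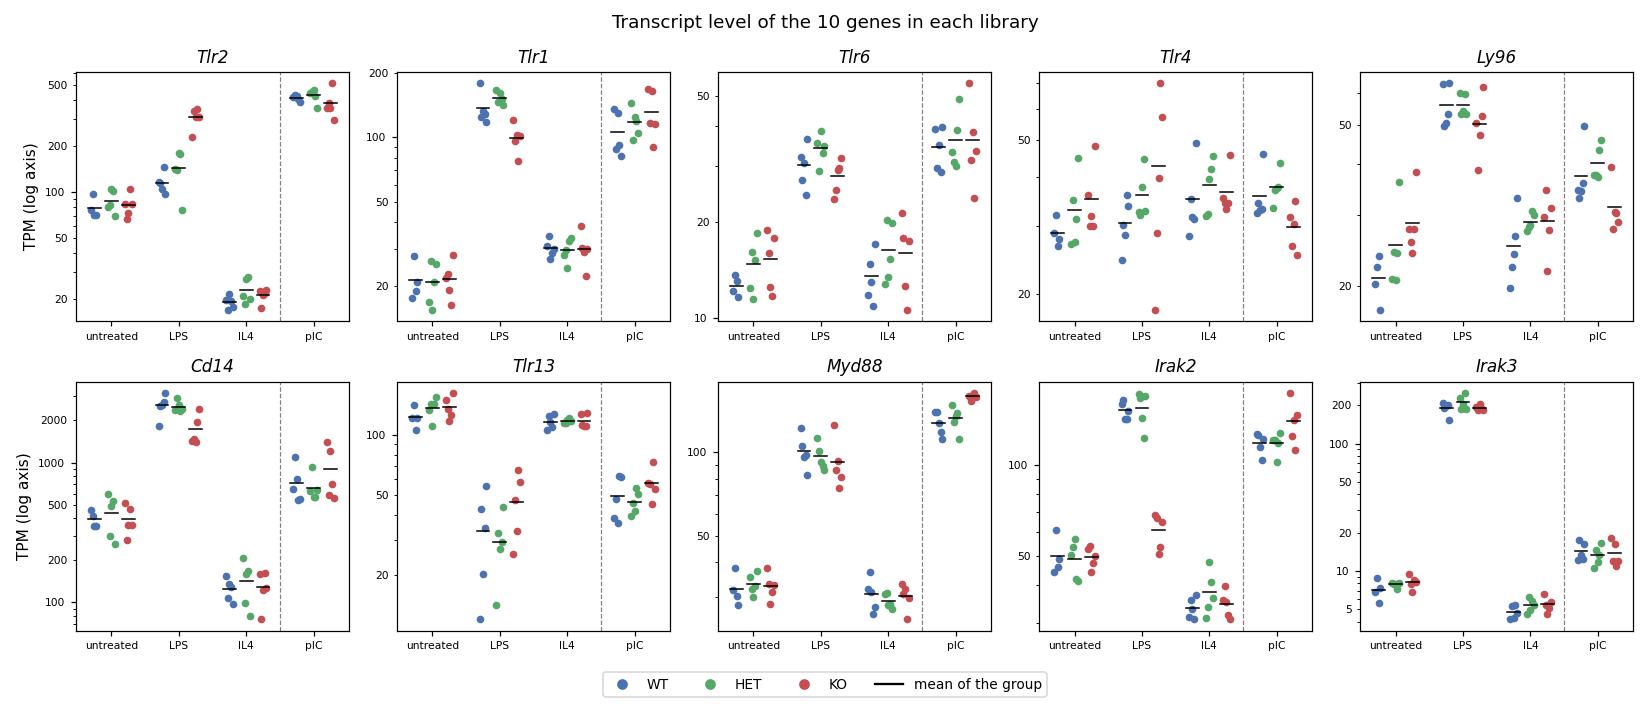
Level of each of the 10 genes in TPM (log axis) in every library, by treatment and genotype. Black bars are group means, and the pIC libraries right of the dashed line come from a table of their own. With LPS the KO libraries of Tlr2 lie between 228 and 352 TPM and those of Irak2 between 50.8 and 68.4, apart from WT and HET.

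Values below are TPM as mean ± SD over the libraries of a group, and differences are of log2(TPM + 1), given as estimate ± SE from limma, a linear model across genes. A difference was called when its p-value, adjusted over all genes tested by the Benjamini-Hochberg method, was under 0.05. All 10 genes were above 1 TPM in every library and passed the filter on low values in both tables. Every adjusted p in these paragraphs comes from limma.

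Without a stimulus the microglia carried all 10 transcripts, at widely different levels. In untreated WT, Cd14 was the most abundant at 394 ± 49.5 TPM (n = 4), followed by Tlr13 at 123 ± 14.6 and Tlr2 at 78.3 ± 12.5. Irak2 was at 50.1 ± 7.59, Myd88 at 32.1 ± 4.31, Tlr4 at 28.8 ± 2.32, Tlr1 at 21.3 ± 4.55, Ly96 at 21.0 ± 2.71 and Tlr6 at 12.7 ± 0.882, and Irak3 was the lowest at 7.13 ± 1.29. None of the 10 genes was called between genotypes in untreated cells, where 0.0314% of all genes were called between KO and WT, 0.0126% between HET and WT and 0.00629% between KO and HET. At an unadjusted p under 0.05, 1 gene stood out between KO and WT and 0 in the other pairs. That gene was Ly96, the single one of the 10 without overlap between KO and WT libraries (0.44% of all genes were non-overlapping and higher). It was at 17.5, 20.3, 22.3 and 23.8 TPM in the WT libraries and 24.1, 25.7, 27.6, 27.7 and 38.2 in KO, a difference of 0.42 ± 0.14 on the log2 scale with an adjusted p of 0.759.

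LPS raised most of the 10 genes in every genotype. Of the 10 genes, 8 were higher and 1 was lower than untreated in WT, in HET and in KO. Over all genes, 13.9% were called higher and 61.9% lower in WT. For HET the shares were 14.3% and 59.7%, and for KO they were 13.1% and 56.5%. These 3 comparisons do not share libraries with each other. The median over the 10 genes was 1.49 in WT (all genes -0.59), 1.33 in HET (-0.51) and 1.14 in KO (-0.44). With median-of-ratios scaling the medians of all genes were -0.06, -0.05 and -0.03, and the calls moved from 2210 higher and 9854 lower to 5024 and 5139 in WT, from 2275 and 9497 to 5134 and 5186 in HET, and from 2085 and 8993 to 4669 and 4629 in KO. Under that scaling every one of the 10 genes kept its direction in all 3 genotypes, with larger rises and a smaller fall.

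**Figure D2:**
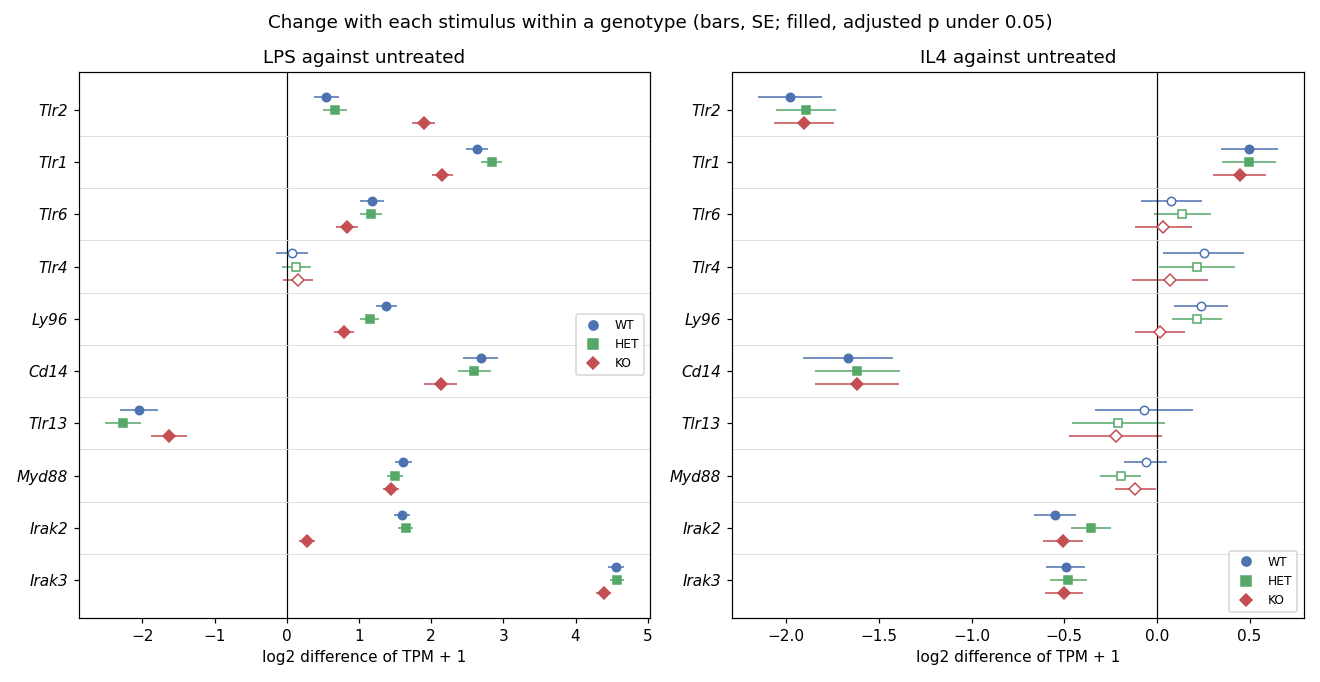
Log2 difference of TPM + 1 from untreated cells of the same genotype with LPS (left) and IL4 (right); bars are SE and filled symbols have an adjusted p under 0.05. Irak3 shows the widest rise with LPS, near 4.5 in each genotype, and KO stands apart from WT and HET for Tlr2 and Irak2.

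Tlr2, the shared subunit of both lipoprotein receptors, rose little with LPS in WT and far more in KO. The WT libraries held 70.3, 70.4, 76.0 and 96.6 TPM untreated and 96.4, 104, 114, 116 and 145 with LPS. The HET libraries held 69.6, 79.2, 81.4, 101 and 104 untreated and 76.0, 140.0, 142, 177 and 181 with LPS. The KO libraries held 66.6, 72.8, 82.8, 83.7 and 104 untreated and 228, 308, 309.6, 339.9 and 352 with LPS. With LPS the lowest KO library was thus above the highest WT and HET library, whereas untreated libraries of the 3 genotypes overlapped. The rise with LPS was 0.55 ± 0.17 in WT (adjusted p = 0.00454), 0.67 ± 0.16 in HET (adjusted p = 0.000391) and 1.89 ± 0.16 in KO (adjusted p = 4.78e-13). With median-of-ratios scaling it was 1.22 in WT, 1.28 in HET and 2.42 in KO. KO exceeded WT with LPS by 1.41 ± 0.16 (adjusted p = 5.28e-09), 2.67-fold in mean TPM, and exceeded HET by 1.14 ± 0.16 (adjusted p = 5.80e-07). The rise itself was larger in KO than in WT by 1.35 ± 0.24 (adjusted p = 5.30e-05), and larger than in HET by 1.23 ± 0.23 (adjusted p = 0.000159).

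Tlr1 and Tlr6 encode the partners of TLR2. Tlr1 rose with LPS in each genotype, and unlike Tlr2 it reached a lower level in KO. With LPS it was at 118, 125, 129, 134 and 179.9 TPM in WT, at 143, 146, 151, 161 and 168 in HET and at 77.1, 96.0, 102, 103 and 120.3 in KO, from untreated means of 21.3, 21.0 and 21.7. All KO libraries were below all HET libraries, and the KO and WT ranges met only at the highest KO and lowest WT library. The rise was 2.64 ± 0.15 in WT, 2.84 ± 0.14 in HET and 2.16 ± 0.14 in KO (adjusted p of 3.42e-16 or less). With LPS, Tlr1 in KO was lower than in WT (-0.46 ± 0.14, adjusted p = 0.0143) and lower than in HET (-0.63 ± 0.14, adjusted p = 0.000812). The call against WT was lost without KO replicate 4 (-0.37, adjusted p = 0.0658), without WT replicate 1 (-0.36, adjusted p = 0.0695) and with quantile normalization (-0.36, adjusted p = 0.133), in a range from 0.00666 to 0.133 over 16 alternatives. The LPS response of Tlr1 was smaller in KO than in HET (-0.68 ± 0.20, adjusted p = 0.0179, from 0.00435 to 0.0925 over 27 alternatives and lost with quantile normalization alone). The difference from WT of -0.48 ± 0.21 was not called (adjusted p = 0.123). It was called with replicate numbers as a block within each genotype (-0.51, adjusted p = 0.042), where the numbers pair LPS with untreated libraries in both WT and KO, and without untreated WT replicate 2 (-0.61, adjusted p = 0.0428), in a range from 0.042 to 0.265 over 26 alternatives. Tlr6 rose from 12.7 ± 0.882 to 30.2 ± 4.72 TPM in WT, from 14.8 ± 2.83 to 34.2 ± 3.56 in HET and from 15.4 ± 3.18 to 27.9 ± 3.30 in KO. The rise was 1.18 ± 0.17, 1.17 ± 0.16 and 0.83 ± 0.16 (adjusted p of 1.33e-05 or less). No difference between genotypes was called for Tlr6, and KO against WT with LPS was -0.10 ± 0.16 (adjusted p = 0.709).

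Of the LPS receptor complex, Tlr4 was not called with LPS while its accessory genes rose. Tlr4 was at 26.7, 27.8, 28.8 and 32.1 TPM in untreated WT and at 24.5, 28.4, 30.2, 33.7 and 35.9 in WT with LPS. In KO with LPS it ran from 18.3 (replicate 1) through 28.8, 39.9 and 57.1 to 69.9 (replicate 4), the widest spread of any Tlr4 group. The LPS difference was 0.07 ± 0.22 in WT, 0.13 ± 0.21 in HET and 0.15 ± 0.21 in KO, none of them called (adjusted p = 0.773, 0.565 and 0.514). Median-of-ratios scaling gave 0.73, 0.74 and 0.67 for the same differences, all called higher (adjusted p = 0.013, 0.00805 and 0.0174). KO against WT with LPS was 0.34 ± 0.21 (adjusted p = 0.250), but 0.60 and called without KO replicate 1 (adjusted p = 0.0101), with adjusted p between 0.0101 and 0.722 over 16 alternatives. The LPS rise of Tlr4 in KO was likewise 0.41 and called without that library (adjusted p = 0.0428, from 0.0174 to 0.958 over 17 alternatives).

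Cd14, the co-receptor that delivers LPS to TLR4, had the highest mean TPM of the 10 genes in each of the 12 groups. WT libraries held 354, 354, 413 and 456 TPM untreated and 1829.6, 2539, 2582, 2726 and 3152 with LPS. KO libraries held 279, 355, 358, 465 and 512 untreated and 1409, 1418, 1468, 1936 and 2407 with LPS, and HET with LPS averaged 2515 ± 233. The rise was 2.69 ± 0.24 in WT, 2.60 ± 0.23 in HET and 2.13 ± 0.23 in KO, called in each (adjusted p of 1.78e-10 or less). With LPS, 3 KO libraries lay below every WT library and 2 within the WT range, and KO against WT was -0.58 ± 0.23, which missed the threshold (adjusted p = 0.0519). It passed in 5 of 16 alternatives, which were median-of-ratios scaling (-0.62, adjusted p = 0.0304), quantile normalization, a replicate block, leaving out KO replicate 5 (-0.71, adjusted p = 0.0213) and leaving out WT replicate 1 (-0.70, adjusted p = 0.0237), over a range of adjusted p from 0.0213 to 0.132. KO against HET was -0.57 ± 0.23 (adjusted p = 0.0644). It passed in 4 of 16 alternatives, which were median-of-ratios scaling (-0.62, adjusted p = 0.0346), a replicate block, a fit of only the groups compared (adjusted p = 0.0383) and leaving out KO replicate 5 (-0.70, adjusted p = 0.0268), over a range from 0.0268 to 0.143.

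Ly96, whose product MD-2 forms the LPS pocket with TLR4, rose from 21.0 ± 2.71 to 56.1 ± 6.75 TPM in WT (1.38 ± 0.14), from 25.2 ± 6.37 to 56.1 ± 3.45 in HET (1.15 ± 0.14) and from 28.7 ± 5.53 to 50.2 ± 8.51 in KO (0.79 ± 0.14). The rise was smaller in KO than in WT (-0.59 ± 0.20, adjusted p = 0.0344), with untreated KO libraries above untreated WT libraries and LPS libraries overlapping. This call held in 16 of 26 alternatives, with adjusted p from 0.0154 to 0.0964. It was lost without KO LPS replicate 2 or 3, KO untreated replicate 5, WT LPS replicate 1 or 5, or WT untreated replicate 1 or 4, where the difference was between -0.58 and -0.48, and with median-of-ratios scaling, quantile normalization or no filter. No call was made for Ly96 between genotypes at any single treatment.

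Tlr13 was the 1 gene of the 10 that fell with LPS. It was at 106, 122, 123 and 141 TPM in untreated WT and at 12.0, 20.1, 34.5, 42.8 and 55.6 with LPS. In KO it went from 118, 126, 136, 151 and 163 to 25.3, 33.2, 47.6, 58.0 and 67.2. All LPS libraries were below all untreated libraries in each genotype. The fall was -2.04 ± 0.27 in WT, -2.27 ± 0.25 in HET and -1.64 ± 0.25 in KO, called in each (adjusted p of 4.67e-07 or less). With median-of-ratios scaling it was -1.37, -1.66 and -1.11. KO against WT with LPS was 0.57 ± 0.25, not called (adjusted p = 0.0871), and it was called without WT replicate 5 (0.80, adjusted p = 0.0117), WT replicate 2 (0.71, adjusted p = 0.0404) or KO replicate 1 (0.76, adjusted p = 0.0195), and adjusted p ran to 0.435 over 16 alternatives. KO against HET was 0.65 ± 0.25 (adjusted p = 0.0554), and it was called without KO replicate 1 (0.84, adjusted p = 0.0117), KO replicate 3 (0.74, adjusted p = 0.0377) or HET replicate 5 (0.81, adjusted p = 0.0194).

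Myd88, the adaptor shared by these receptors, rose with LPS in the 3 genotypes without a called difference between them. It went from 32.1 ± 4.31 to 101 ± 14.2 TPM in WT (1.61 ± 0.12), from 33.5 ± 2.78 to 96.4 ± 10.8 in HET (1.49 ± 0.11) and from 32.8 ± 3.59 to 91.8 ± 19.9 in KO (1.44 ± 0.11). KO against WT with LPS was -0.14 ± 0.11 (adjusted p = 0.396).

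Irak2 and Irak3, which act after MYD88, differed in how KO compared with WT. Irak2 was at 44.4, 46.0, 48.9 and 61.1 TPM in untreated WT and at 142, 143, 152, 160.1 and 165 in WT with LPS. In HET it went from 48.9 ± 6.86 to 155 ± 21.2. In KO it went from 44.3, 47.6, 50.0, 52.6 and 54.0 to 50.8, 53.8, 64.9, 66.8 and 68.4. The highest KO library with LPS was thus below the lowest WT and HET library with LPS, at 142 and 123 TPM. The rise was 1.59 ± 0.12 in WT, 1.65 ± 0.11 in HET and 0.28 ± 0.11 in KO (adjusted p = 0.0206). This last call was lost without KO LPS replicate 1 (0.24, adjusted p = 0.0647), KO LPS replicate 2 (0.25, adjusted p = 0.0558) or KO untreated replicate 3 (0.24, adjusted p = 0.0615), and with median-of-ratios scaling the rise was 0.80, over adjusted p from 3.3e-06 to 0.0647 in 17 alternatives. With LPS, Irak2 was lower in KO than in WT (-1.32 ± 0.11, adjusted p = 1.55e-12) and than in HET (-1.33 ± 0.11, adjusted p = 2.21e-12), and WT held 2.50 times the mean TPM of KO. The LPS response differed by -1.31 ± 0.16 between KO and WT (adjusted p = 7.56e-08) and by -1.36 ± 0.15 between KO and HET (adjusted p = 2.69e-08).

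Irak3, the inhibitory member, had the widest rise of the 10 genes and showed no called difference between genotypes. It went from 5.62, 6.83, 7.31 and 8.75 TPM in untreated WT to 153, 189, 198, 200.4 and 208 with LPS. In KO it went from 6.82, 7.83, 8.12, 8.46 and 9.45 to 183, 185, 186, 192 and 203. The mean with LPS was 26.6 times the untreated mean in WT, 26.9 times in HET and 23.3 times in KO. The log2 rise was 4.56 ± 0.11, 4.58 ± 0.10 and 4.39 ± 0.10 (adjusted p of 1.36e-30 or less). KO against WT with LPS was 0.01 ± 0.10 (adjusted p = 0.971).

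Across the 10 genes, KO against WT with LPS gave 1 higher (Tlr2) and 2 lower (Tlr1, Irak2) calls, where 14.4% of all genes were higher and 13.2% lower. Libraries did not overlap for 1 gene higher (Tlr2, background 7.56%) and 1 lower (Irak2, background 8.61%). KO against HET with LPS gave 1 higher (Tlr2) and 2 lower (Tlr1, Irak2) calls, where 12.5% were higher and 11.5% lower, and none of these 3 genes overlapped (background 6.5% higher and 6.89% lower). For a list of 10 genes, these shares are near those of all genes. Both comparisons share the KO libraries. In the same libraries the microglia markers summed to between 2060 and 2590 TPM in KO and 1550 to 2050 in WT, with 5 of 10 called higher, and the border macrophage and monocyte markers were higher in KO as given above. For the LPS response, KO against WT gave 1 higher (Tlr2) and 2 lower (Ly96, Irak2) calls at a background of 9.36% higher and 7.03% lower (1489 and 1118 genes, and 1142 and 1654 with median-of-ratios scaling). KO against HET gave 1 higher (Tlr2) and 2 lower (Tlr1, Irak2) at 7.69% and 6.15% (1223 and 978 genes, and 1076 and 1331 with that scaling). HET against WT gave 0 calls among the 10 genes untreated and with LPS, IL4 or pIC, and 0 at an unadjusted p under 0.05. The background of HET against WT was 0.0126% in the first 3 and 0% with pIC. Its LPS response gave 0 calls as well, at a background of 0%.

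**Figure D3:**
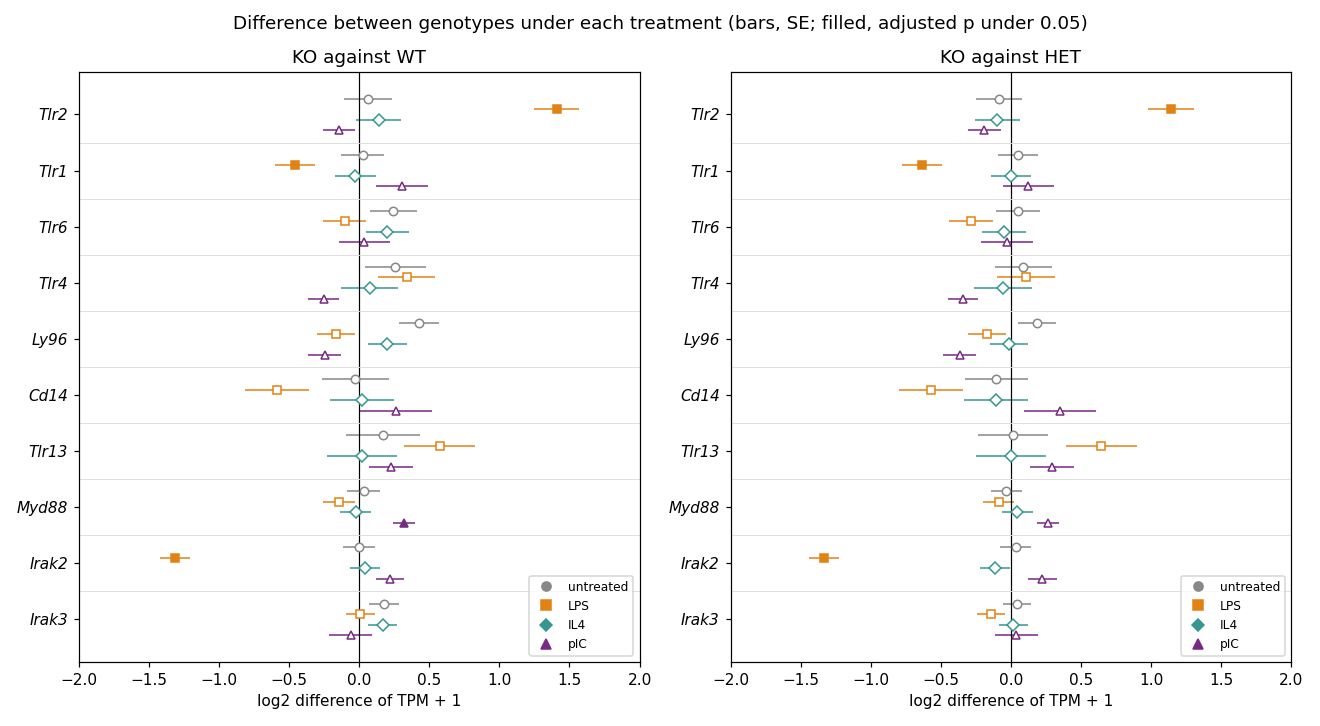
Log2 difference of TPM + 1 between KO and WT (left) and KO and HET (right) under each treatment; bars are SE and filled symbols have an adjusted p under 0.05. The filled symbols are Tlr2, Tlr1 and Irak2 with LPS in both panels and Myd88 with pIC on the left.

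Ratios of partner transcripts within a library do not depend on the library's scaling. They combine genes already compared above in the same libraries, so a difference in a ratio is not a separate finding. Log2 ratios of TPM + 0.1 were compared by two-sided exact permutation tests, 84 in all, adjusted together, for which the smallest possible p was 0.00794. Tlr2 outnumbered Tlr1 in all untreated libraries, 3.70 ± 0.431 to 1 in WT (n = 4), 4.39 ± 1.57 in HET and 3.95 ± 1.40 in KO. With LPS the ratio was 0.644 to 1.12 over the WT libraries and 0.534 to 1.17 over the HET libraries but 1.89 to 4.56 over the KO libraries. The log2 ratio of Tlr2 to Tlr1 fell with LPS by 2.14 in WT and 2.22 in HET (adjusted exact p = 0.0230 each), and its change in KO was -0.30 (exact permutation p = 0.341, adjusted 0.512). KO exceeded WT by 1.88 and HET by 1.79 (adjusted exact p = 0.0230 each), with no overlap of libraries. For Tlr2 to Tlr6 the KO excess with LPS was 1.52 over WT and 1.44 over HET (adjusted exact p = 0.0230 each). Tlr1 to Tlr6 with LPS was -0.35 in KO against WT (adjusted exact p = 0.248).

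The ratio of the inhibitory Irak3 to Irak2 differed with LPS, where Irak2 was called lower in KO and Irak3 was not called. Irak3 to Irak2 was 0.144 ± 0.0141 in untreated WT and 0.165 ± 0.0146 in untreated KO. With LPS it was 1.01 to 1.40 over the WT libraries, 1.09 to 2.03 in HET and 2.76 to 3.99 in KO. KO exceeded WT by 1.34 and HET by 1.20 on the log2 scale (adjusted exact p = 0.0230 each). When 1 replicate number at a time was left out, the KO excess over WT stayed between 1.29 and 1.39, and that of Tlr2 to Tlr1 between 1.84 and 1.96. Cd14 to Tlr4 with LPS averaged 83.6 ± 8.53 in WT, 71.2 ± 13.5 in HET and 46.6 ± 19.1 in KO. The log2 difference of KO from WT was -0.93 (exact permutation p = 0.0238, adjusted 0.0606). Ly96 to Tlr4 with LPS was 1.87 ± 0.422 in WT and 1.42 ± 0.772 in KO, a log2 difference of -0.51 (exact permutation p = 0.175, adjusted 0.299).

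**Figure D4:**
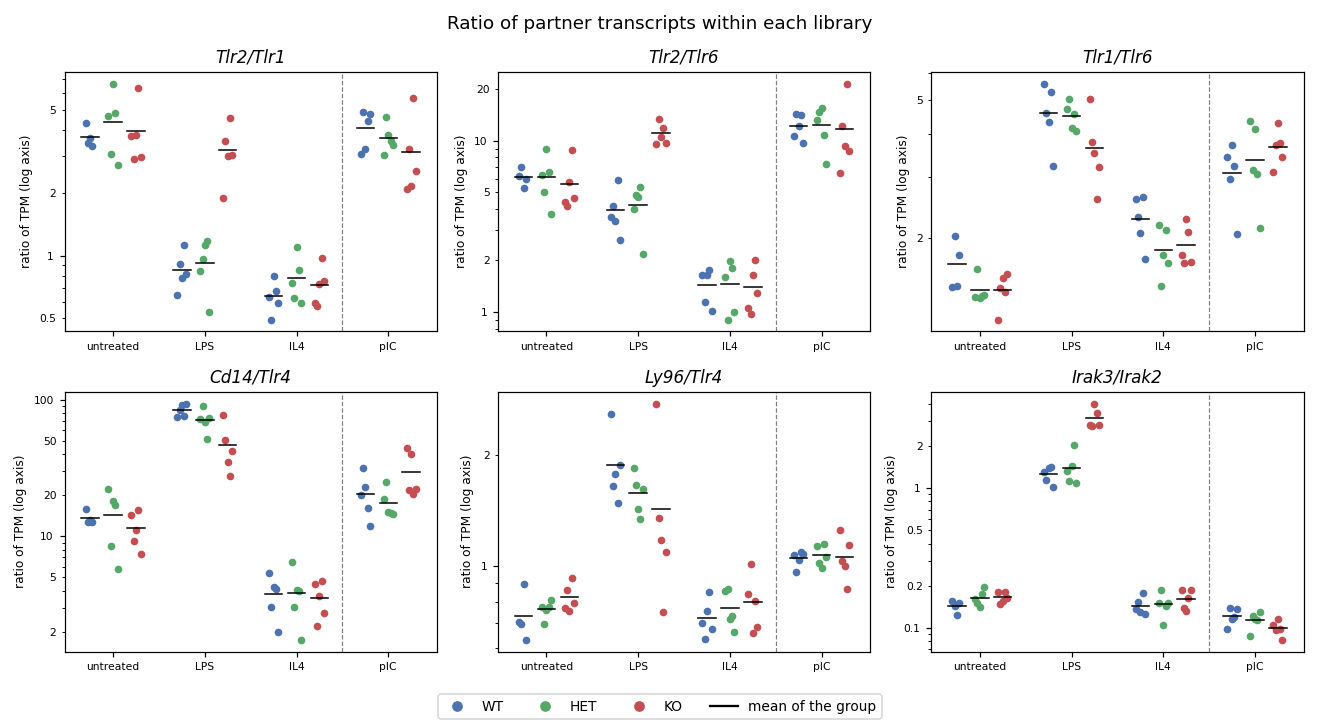
Ratio of TPM of partner genes within each library (log axis), by treatment and genotype; black bars are group means, and the pIC libraries are right of the dashed line. With LPS the KO libraries lie above all WT and HET libraries for Tlr2 to Tlr1, Tlr2 to Tlr6 and Irak3 to Irak2.

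IL4, a cytokine that drives a different macrophage state from LPS, lowered Tlr2, Cd14, Irak2 and Irak3 and raised Tlr1, while the other 5 genes were not called. In each genotype 1 of the 10 genes was higher and 4 were lower than untreated. Among all genes in WT, 3.68% were called higher and 2.63% lower (585 and 419 genes, and 702 and 225 with median-of-ratios scaling). In HET the shares were 3.97% and 3.09% (631 and 491 genes, and 685 and 348), and in KO they were 5.38% and 3.03%. The untreated libraries are those of the LPS comparisons. Tlr2 was at 16.9, 17.6, 19.3, 19.7 and 21.5 TPM in WT with IL4, at 22.7 ± 4.27 in HET and at 17.4, 21.0, 21.6, 22.5 and 22.6 in KO. Every IL4 library was below every untreated library, and the difference was -1.98 ± 0.17, -1.89 ± 0.16 and -1.90 ± 0.16 (adjusted p of 2.5e-11 or less). Cd14 was at 124 ± 22.6 in WT, 142 ± 52.3 in HET and 129 ± 35.1 in KO, a difference of -1.67 ± 0.24, -1.62 ± 0.23 and -1.62 ± 0.23 (adjusted p of 3.48e-06 or less).

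The IRAK genes also fell with IL4. Irak2 was at 33.7 ± 2.74, 38.0 ± 6.55 and 34.8 ± 3.50 TPM in WT, HET and KO, a difference of -0.55 ± 0.12 (adjusted p = 0.00117), -0.36 ± 0.11 (adjusted p = 0.0329) and -0.51 ± 0.11 (adjusted p = 0.00112). Irak3 was at 4.74 ± 0.570, 5.37 ± 0.683 and 5.46 ± 0.754, a difference of -0.49 ± 0.11 (adjusted p = 0.00170), -0.48 ± 0.10 (adjusted p = 0.00102) and -0.50 ± 0.10 (adjusted p = 0.000464). Tlr1 was higher, at 30.2 ± 2.80, 29.7 ± 3.73 and 29.9 ± 5.66, by 0.50 ± 0.15, 0.50 ± 0.14 and 0.45 ± 0.14, close to the threshold in each genotype (adjusted p = 0.0411, 0.0237 and 0.0451). The Tlr1 call held in 8 of 16 alternatives in WT, 12 of 17 in HET and 5 of 17 in KO, with adjusted p up to 0.166, 0.119 and 0.183. It was lost without any of 6 WT libraries (untreated 1, 3 or 4, IL4 1, 2 or 5), 4 HET libraries (untreated 1 or 3, IL4 4 or 5) or 8 KO libraries (untreated 1, 2, 3 or 4, IL4 1, 2, 3 or 5). The Irak2 call in HET held in 7 of 17, with adjusted p from 0.00641 to 0.254, and was lost without any of 6 libraries (untreated 1, 2 or 3, IL4 1, 2 or 5). In WT the Irak2 call was lost with median-of-ratios scaling (adjusted p = 0.0622), and the Irak3 call in 3 of 16 alternatives (adjusted p from 0.000424 to 0.116), none of which left out a library. The log2 ratio of Tlr2 to Tlr1 fell by 2.55, 2.45 and 2.41 (adjusted exact p = 0.0230 each).

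Tlr4, Tlr6, Tlr13, Ly96 and Myd88 were not called with IL4 in any genotype, and Tlr13 stayed at 117 ± 9.54, 118 ± 2.91 and 118 ± 9.11 TPM. No gene of the 10 was called between genotypes in IL4-treated cells, and 0 passed an unadjusted p under 0.05 in any of the 3 pairs. The background was 0.044% for KO against WT and 0.00629% for KO against HET. No IL4 response differed between genotypes by limma either, where 0% of all genes were called in each of the 3 pairs and 0 of the 10 genes passed an unadjusted p under 0.05.

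With pIC, a ligand of TLR3 and of cytosolic RNA sensors that does not signal through MYD88, KO against WT was not called for Tlr2, Tlr1 or Irak2. Tlr2 was at 388, 409, 417, 425 and 428 TPM in WT and at 294, 354, 357, 381 and 516 in KO, and KO against WT was -0.14 ± 0.12 (adjusted p = 0.456). Irak2 was at 104, 115, 122, 126 and 127 in WT and at 112, 125, 141, 147 and 174 in KO, a difference of 0.22 ± 0.10 (adjusted p = 0.173). Tlr1 averaged 106 ± 25.4 in WT and 132 ± 34.4 in KO, a difference of 0.30 ± 0.18 (adjusted p = 0.299). In these libraries the microglia markers summed to between 3220 and 6210 TPM in KO, 2710 and 3850 in HET and 2670 and 3320 in WT, and 4 of 9 tested markers were called higher and 1 lower for KO against WT. KO replicate 4 stood apart with the highest sum and with Cx3cr1 at 549 TPM, against 59.3 to 215 in the other KO libraries. Among the KO libraries it also held the highest Tlr2 level, 516 TPM, and the lowest levels of Irak2 and Tlr1. Without it, KO against WT was -0.26 for Tlr2 (adjusted p = 0.0683), 0.29 for Irak2 (adjusted p = 0.0562) and 0.43 for Tlr1 (adjusted p = 0.125), still not called. The part of these marker levels in the pIC results was not tested. Whether the KO difference itself changes between LPS and pIC was not tested, because the pIC libraries were deposited in a separate table.

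Myd88 was the single call between KO and WT with pIC, where 3.4% of all genes were called higher and 8.11% lower (473 and 1129 genes, and 724 and 470 with median-of-ratios scaling). It was at 112, 118, 127, 139.8 and 140.0 TPM in WT, at 111, 129, 135, 138 and 148 in HET and at 152, 158, 159.6, 159.9 and 163 in KO. All KO libraries were above all WT and HET libraries, as for 2.64% of all genes against WT and 1.98% against HET. KO exceeded WT by 0.32 ± 0.08 (adjusted p = 0.0178), called in all 16 alternatives with adjusted p up to 0.0466, and without KO replicate 4 it was 0.31 (adjusted p = 0.0334). KO against HET was 0.27 ± 0.08, which missed the threshold (adjusted p = 0.0665, from 0.0321 to 0.139 over 16 alternatives). For Ly96, KO against HET was -0.36 ± 0.12, not called (adjusted p = 0.0864) but called without KO replicate 1 (-0.45, adjusted p = 0.0351, with a range to 0.312 over 16 alternatives). Against HET, 0 of the 10 genes were called and 4 passed an unadjusted p under 0.05, with 1.65% of all genes called higher and 3.6% lower (229 and 501 genes, and 289 and 216 with median-of-ratios scaling).

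Set beside the untreated means without a test, the pIC means of Tlr2 were 5.28 times the untreated mean in WT, 4.92 times in HET and 4.64 times in KO. For Tlr1 these ratios were 4.96, 5.63 and 6.06, for Myd88 3.96, 3.95 and 4.84 and for Irak2 2.37, 2.42 and 2.81. Irak3, at 14.3 ± 2.41 TPM in WT with pIC, was 2.01 times its untreated mean, against 26.6 times with LPS. Tlr13 with pIC was 0.403 times its untreated mean in WT, and Tlr4 1.24 times. Levels set across the 2 tables are descriptive, since the tables are separate and were not tested together.

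The order of levels differed by gene. Tlr2 was highest with pIC in all 3 genotypes (means of 380.4 to 428 TPM), then in KO with LPS, and the KO LPS libraries did not overlap the HET LPS libraries next in order. Its lowest groups, with IL4, did not overlap untreated WT above them. For Tlr1 the LPS and pIC groups overlapped in sequence from 154 TPM in HET with LPS to 99.7 in KO with LPS, and none of these overlapped the IL4 groups. For Tlr4 every neighbour in the order overlapped the next, from 42.8 TPM in KO with LPS to 28.8 in untreated WT. For Tlr13 the untreated and IL4 groups lay above all pIC and LPS groups.

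The wider pathway was described with 44 further genes of TLR signalling, of which 39 were tested in the untreated, LPS and IL4 libraries and 40 in the pIC libraries. With LPS in WT, 15 of 39 were higher and 19 lower, with a median of 0.00 against -0.59 over all genes, and with median-of-ratios scaling 22 were higher and 7 lower. Over all genes 13.9% were higher and 61.9% lower. The widest called differences were the adaptor Scimp (5.95 ± 0.31), which binds TLRs at the membrane, the inhibitors Tnfaip3 (A20, 3.71 ± 0.15) and Nfkbia (IκBα, 3.30 ± 0.13), and Tlr3 (2.59 ± 0.17), the receptor for double-stranded RNA. Of 6 adaptors 5 were higher and 1 lower, also with both other scalings, and of 17 kinases and ubiquitin enzymes 4 were higher and 10 lower on the TPM scale, against 8 and 2 with median-of-ratios scaling. Quantile normalization gave 6 and 5.

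Between KO and WT with LPS, 4 of the 39 were higher and 14 lower, and 4 and 16 with median-of-ratios scaling, where 14.4% of all genes were higher and 13.2% lower on the TPM scale. The widest called differences were Peli1 (-2.28 ± 0.14), a ubiquitin ligase of the IRAK complex, at 100.0 ± 5.98 TPM in WT and 20.0 ± 3.57 in KO, then Scimp (-1.82 ± 0.30), Tnfaip3 (-1.31 ± 0.15) and Tlr3 (-1.11 ± 0.16). Tnfaip3 was in KO at 84.7 ± 20.0 TPM against 207 ± 13.3 in WT, and Scimp at 30.0 ± 20.1 against 92.5 ± 26.5. Of the 6 adaptors 5 were lower in KO and 0 higher under each scaling, beside the same 13.2% of all genes lower. Besides Scimp these were Tirap (-0.82 ± 0.11), Ticam1 (-0.66 ± 0.11), Ticam2 (-0.58 ± 0.16) and Pik3ap1 (-0.73 ± 0.13), named after their values were seen. Tirap bridges TLR2 and TLR4 to MYD88, and Ticam1 and Ticam2 encode TRIF and TRAM. Against HET, 4 of the 39 genes were higher and 16 lower (12.5% and 11.5% of all genes), with 2 higher without HET replicate 4 or 5 or KO replicate 2 or 3. A fit of only the groups compared gave 0 higher and 11 lower against HET, and no filter on low values gave 2 and 13. Of the 6 adaptors 4 were lower and 0 higher against HET, under each scaling. For the LPS response, 5 adaptors were lower in KO than in WT (7.03% of all genes lower). Against HET 3 were lower (6.15%), and 2 with either other scaling. In untreated and IL4-treated cells 0 of the 39 were called between KO and WT.

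With pIC, KO against WT gave 6 higher and 4 lower calls among 40 pathway genes, where 3.4% of all genes were higher and 8.11% lower, so the share of lower calls is near that of all genes. Leaving out each library gave 3 to 6 higher and 3 to 4 lower, with 3 and 3 without WT replicate 4. The 6 higher calls were kept only without KO replicate 3 or WT replicate 5. No filter on low values gave 4 and 4, and a fit of only the groups compared gave 4 and 3. With all libraries, the calls were led by Tlr8 (1.36 ± 0.24), Peli1 (-0.94 ± 0.09), Cd36 (0.92 ± 0.21), a scavenger receptor that assists TLR2, and Tlr11 (0.53 ± 0.14). Peli1 was at 221 ± 15.2 TPM in WT and 116 ± 14.3 in KO. With IL4 in WT, 4 of 39 were higher and 1 lower than untreated, at 3.68% and 2.63% of all genes, led by Scimp (2.87 ± 0.31), Cd36 (2.06 ± 0.30), Il1rl1 (1.10 ± 0.23) and Tlr8 (0.99 ± 0.16). Il1rl1 encodes the interleukin-33 receptor, which can restrain TLR4 signalling.

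Over the 44 untreated, LPS and IL4 libraries, the genes whose log2(TPM + 1) pattern was most like each of the 10 were ranked among 10073 genes with a mean of at least 5 TPM. These points share treatment groups and scaling, so the Pearson coefficients are descriptions. Irak3 was most like Siglece (0.997), Prdx5 (0.996) and Aoah (0.995), Myd88 had Nadk and Dtx2 (0.983 each) among its 3 most alike, and Tlr1 was most like Pim1 (0.985), Slc31a2 (0.982) and Lst1 (0.981). Cd14 was most like Slc11a1 (0.973), St3gal5 (0.969) and Il4ra (0.968), Irak2 like Plagl2 (0.969), Zup1 (0.964) and Lyn (0.962), and Tlr13 like Tent5c (0.968), Lhfpl2 (0.963) and Trem2 (0.959). Tlr2 was most like Icosl (0.960), Il13ra1 (0.949) and Cd302 (0.928), Ly96 like Msr1 (0.942), Fcer1g (0.939) and Bcl2a1d (0.934), and Tlr6 like Zc3hav1 (0.941), Fcer1g (0.936) and Derl2 (0.933). Tlr4 had the weakest leading match, Rai14 (0.769), followed by Zfp984 (0.767) and Cast (0.754). Among the 10 genes, Myd88 and Irak3 had the highest coefficient (0.98), Tlr1 and Tlr6 had 0.92, Tlr1 and Tlr2 0.56, and Tlr13 had -0.92 with both Tlr1 and Myd88.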

How the data were processed

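The authors deposited TPM per gene in 2 separate tables, 44 untreated, LPS and IL4 libraries and 15 pIC libraries, per the file headers. Per the submitters' processing notes, FastQC, Trimmomatic, DRAGEN, Picard and mm10 were used; versions are not given in the sources used here. Genes that reached 1 TPM in 4 or more libraries of a table (15908 and 13919) were transformed as log2(TPM + 1), which understates differences of low genes, and tested with limma 3.58.1 (R 4.3.3; group means, trended empirical Bayes, all groups of a table sharing the spread) in 24 comparisons. No test was made across tables. The procedure was tested on simulated data. The 10 genes and the lists of pathway genes and markers were chosen with earlier results of these data known. Named were the 10 genes, Tbk1 and Cx3cr1, up to 4 called pathway genes per main comparison and the 3 most alike genes each (1 such gene is not reported here), and any further name was picked with its value in view. Numbers in the labels pair libraries by correlated deviations (every pair over 0.1) in untreated HET against WT and in LPS or IL4 against untreated in WT and KO; there a replicate block changed no call of these comparisons, and in the LPS response of KO against WT it added Tlr1. Alternatives were another pseudocount, no filter, 2 other normalizations, a replicate block, only the groups compared, and each library left out.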

Additional observations from a re-analysis of the deposited data

Results flagged for a closer look

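In 9 of 120 groups of libraries, 1 library lay far from the others by Dixon's test at the 95% level, which chance alone gives in about 1 of 20 groups. Replicate 5 was the highest of its group for Ly96 in untreated HET (36.2 TPM, next 24.31), untreated KO (38.2, next 27.74) and WT with pIC (49.63, next 35.89), and for Tlr4 in KO with IL4 (45.64, next 35.4) and WT with pIC (46.06, next 34.3). The others were Ly96 in KO with pIC, replicate 1 (39.34, next 30.42), Tlr1 in WT with LPS, replicate 1 (179.9, next 133.7), Cd14 in HET with pIC, replicate 2 (921.5, next 633.1), and Irak3 in untreated HET, replicate 4, the lowest (7.244, next 7.898).

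The LPS response differed between genotypes by limma's interaction test for 4 genes. KO minus WT was 1.35 for Tlr2, -1.31 for Irak2 and -0.59 for Ly96 on the log2 scale, and KO minus HET was 1.23 for Tlr2, -1.36 for Irak2 and -0.68 for Tlr1. Adjusted p-values stand in the report; the calls for Ly96 and, against HET, for Tlr1 were not kept in every alternative.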

How the results depend on the processing

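The call was the same in 4397 of 4480 recomputed values of the 10 genes, and no called value changed direction. Of those 4397 values, 349 that were not called changed sign. The count of called genes for IL4 against untreated in WT moved from 5 to 3 with median-of-ratios scaling and to 3 when only the groups compared were fitted, which also gave 3 of 5 in HET. The cause was not tested. With a replicate block, KO against WT and KO against HET with LPS each moved from 3 to 5 calls, adding Cd14 (-0.58 and -0.57, adjusted p = 0.0262 and 0.0336) and Tlr13 (0.57 and 0.65, adjusted p = 0.0274 and 0.0144). KO against HET with pIC moved from 0 to 1 call (Myd88) with the block and with median-of-ratios scaling. In those comparisons the numbers missed the rule that every same-number pair exceed 0.1, with a correlation as low as -0.07. The mean same-number correlation was still above that of other numbers. It was 0.125 against -0.03 for KO against WT with LPS and 0.087 against -0.021 for KO against HET with LPS. For KO against HET with pIC it was 0.097 against -0.025. Whether the numbers mark a shared batch there was not tested. The block within a genotype added Tlr1 in the LPS response of KO against WT (-0.51, adjusted p = 0.042).

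Leaving out each library gave 2 to 5 calls for KO against WT and 3 to 4 for KO against HET with LPS, 2 to 4 for the LPS response of KO against WT, 8 to 9 for LPS in KO, 4 to 5 for IL4 in WT and KO, 3 to 5 for IL4 in HET and 0 to 1 for KO against HET with pIC. Leaving out a replicate number left 0 to 0 calls for each of the 6 partner ratios, where the smallest possible exact permutation p of 0.0286 cannot pass after adjustment, so this says nothing on stability. Depth is unknown for TPM and limits low genes such as Irak3.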
